A study of Mus musculus with 5 samples.

Results

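The 10 genes described here, Dync1h1, Huwe1, Herc1, Herc2, Birc6, Ahnak, Mdn1, Macf1, Ubr4 and Prkdc, encode some of the largest proteins of the mouse cell. They were chosen by gene symbol, as the Gencode annotation gives it, and every transcript annotated as protein_coding was taken. This gave 47 transcripts for the 10 genes, among 135276 transcripts and 21917 protein-coding genes in the whole series. All 47 passed the filter on low values, which asked for 1 CPM (reads scaled to the library total after TMM adjustment) in at least 1 library, as did 66972 of the 135276 transcripts. Each gene is first described by its longest protein_coding transcript.

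The libraries are ribosome profiles of mouse embryonic stem cells (mESCs), pluripotent cells kept undifferentiated in medium with serum and the cytokine LIF on gelatin. Cells were given cycloheximide, which halts elongating ribosomes, and all lysates were digested with RNase I in the presence of sBlock, a reagent that holds nascent chains on the ribosome. For standard RIBO-seq (3 biological replicates), ribosomes were collected through a sucrose cushion. For AHARIBO RIBO-seq (2 biological replicates), ribosomes were collected on beads through L-azidohomoalanine (AHA), a methionine analog that is built into nascent chains and coupled to biotin. The labels give both groups as untreated and give no AHA dose or genotype for these libraries, and the study's text describes the standard libraries as made from the input. The comparison between the methods asks which transcripts are better or less well represented when ribosomes are taken by their nascent chain.

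Ribosome profiling counts short RNA fragments protected by ribosomes, so that the reads of a transcript reflect how many ribosomes were on it. A giant protein needs a long coding sequence and a long time on the ribosome. Several of the 10 genes belong to the ubiquitin system, in which E3 ligases transfer ubiquitin to proteins and mark many of them for degradation. Others carry cargo along microtubules or link parts of the cytoskeleton, and others act in DNA repair or in ribosome assembly.

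The labelled size was borne out by the annotation. Coding sequences ran from 12384 nt in Prkdc to 22065 nt in Macf1, or from 4128 to 7355 residues. Ranked by the coding sequence of the longest transcript over all 21917 protein-coding genes, Macf1 came 6, Ahnak 12, Mdn1 14 and Ubr4 18. Birc6 came 31, Herc1 33, Herc2 34, Dync1h1 41, Huwe1 59 and Prkdc 67. In all, 74 genes had a coding sequence of at least 12 kb.

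AHA can enter a chain wherever the coding sequence has an in-frame ATG, so the first 120 coding bases are shown for the 4 genes with the largest differences between methods and the 2 with the smallest. Capitals mark in-frame ATG codons, the strand is that of the transcript, and the sequences are those of the Gencode M21 transcripts (build GRCm38).
Macf1: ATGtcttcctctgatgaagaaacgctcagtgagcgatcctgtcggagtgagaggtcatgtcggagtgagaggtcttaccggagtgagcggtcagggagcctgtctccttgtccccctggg
Ahnak: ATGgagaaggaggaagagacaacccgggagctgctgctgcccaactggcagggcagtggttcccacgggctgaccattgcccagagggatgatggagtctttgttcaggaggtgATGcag
Herc1: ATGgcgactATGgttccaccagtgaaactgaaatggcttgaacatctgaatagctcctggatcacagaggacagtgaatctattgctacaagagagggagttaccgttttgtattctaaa
Prkdc: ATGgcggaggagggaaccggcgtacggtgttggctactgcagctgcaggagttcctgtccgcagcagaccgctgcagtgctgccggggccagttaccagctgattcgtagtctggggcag
Birc6: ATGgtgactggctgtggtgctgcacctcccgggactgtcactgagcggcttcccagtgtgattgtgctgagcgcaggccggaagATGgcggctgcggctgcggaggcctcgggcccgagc
Ubr4: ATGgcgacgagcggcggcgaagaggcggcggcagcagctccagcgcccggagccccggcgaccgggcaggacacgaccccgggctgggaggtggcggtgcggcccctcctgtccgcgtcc
Among these 6, Herc1, Ahnak and Birc6 have a second in-frame ATG within the first 40 codons, at codon 4, 39 and 29. In Ubr4, Macf1 and Prkdc it follows at codon 46, 93 and 101. In the other 4 genes it lies at codon 39 in Herc2, 63 in Dync1h1, 75 in Huwe1 and 98 in Mdn1.

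Over the whole coding sequence, Ahnak has 252 methionine codons, or 44.6 per 1000 residues. The other 9 genes have 88 to 150 methionine codons, or 18.2 to 29.3 per 1000 residues. Among the 12291 genes tested by their longest transcript, the class with 1 to 2 kb of coding sequence had a median of 20.9 per 1000. Ahnak is also the only one of the 10 whose transcript repeats itself at the length of a footprint. Of its 28-nt windows, 28.9% occur more than once in the transcript, and none do in the other 9 genes. The most repeated window occurs 15 times between transcript bases 3994 and 13909 and is shown because reads from it cannot be given a single position.
Ahnak repeat: gcccagactggcacctgaagatgcccaa
Reads are counted per transcript, so repeats within Ahnak need not lower its count, but an aligner with a limit on the number of matches can drop reads from windows over that limit, which was not tested. Windows with more than 10 copies make up 1.43% of Ahnak. Reads from exons shared by many transcripts of a gene also match several times. Macf1 has 15 protein_coding transcripts, and Birc6 has 21 of any type. Whether reads were lost there was not tested. Windows shared with another gene's transcript were 0.381% in Birc6 and at most 0.0111% in the other 9 genes.

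The depth was 8992773, 9110668 and 6403651 reads after duplicate removal in the standard libraries and 11150527 and 9972892 in the AHARIBO libraries. A count of 3 reads, the limit below which no level is given, corresponds to 0.262 to 0.476 CPM. All 8 pluripotency markers were between 60.4 and 276 CPM in all libraries, and 3 of them (Sox2, Klf4 and Utf1, named after their values were seen) were lower with AHARIBO by edgeR, of which DESeq2 called only Utf1. Of 5 fibroblast and 4 endoderm markers, none exceeded 3.49 CPM, while the 4 neuronal markers ran from 0 to 36.8 CPM. The summed fibroblast markers were 5.63 to 6.39 CPM with standard RIBO-seq and 5.77 to 5.89 with AHARIBO, the neuronal ones 40.5 to 41.8 and 37.2 to 37.3, and the endoderm ones 2.87 to 3.97 and 2.01 to 3.20. Across all 66972 transcripts tested with edgeR's quasi-likelihood test, 1520 were higher with AHARIBO (2.27%) and 1501 lower (2.24%) at an adjusted p under 0.05. Scaled by library size only, without TMM, 1978 were higher and 1048 lower.

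The footprint level of the 10 genes spanned more than an order of magnitude. In CPM per kb of transcript, a level scaled for transcript length, Ubr4 was highest with standard RIBO-seq at 16.5 ± 0.566 (SD, n = 3), followed by Huwe1 at 14.9 ± 1.10. Ubr4, an E3 ligase of the N-degron pathway, and Huwe1, an E3 ligase of the HECT type, overlapped in their ranges over libraries, but Ubr4 was above Huwe1 within each of the 3 standard libraries. Mdn1 at 9.62 ± 0.287, Dync1h1 at 8.57 ± 0.611 and Birc6 at 6.77 ± 0.254 followed, each below the one before it in all 3 libraries. Herc2 at 2.42 ± 0.176, Herc1 at 2.08 ± 0.226, Prkdc at 1.98 ± 0.239 and Ahnak at 1.79 ± 0.186 formed a group in which neighbours overlapped. Macf1 was lowest at 0.396 ± 0.0864, and its library values lay below those of all the others. The median of the 12291 genes tested was 3.04 CPM per kb, so 5 of the 10 giant genes lay above it and 5 below. Duplicate removal took a larger share of the reads of genes with short coding sequences, as given further on, which limits this comparison. The ratio of the highest to the lowest mean was 41.7 with standard RIBO-seq and 21.4 with AHARIBO. With AHARIBO, Huwe1 at 17.7 ± 0.926 (SD, n = 2) stood above Ubr4 at 17.4 ± 0.475, within each of the 2 libraries but by only 17.09 against 17.07 in replicate 2, and the other 8 kept their order. This switch between the methods was not tested.

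**Figure D1:**
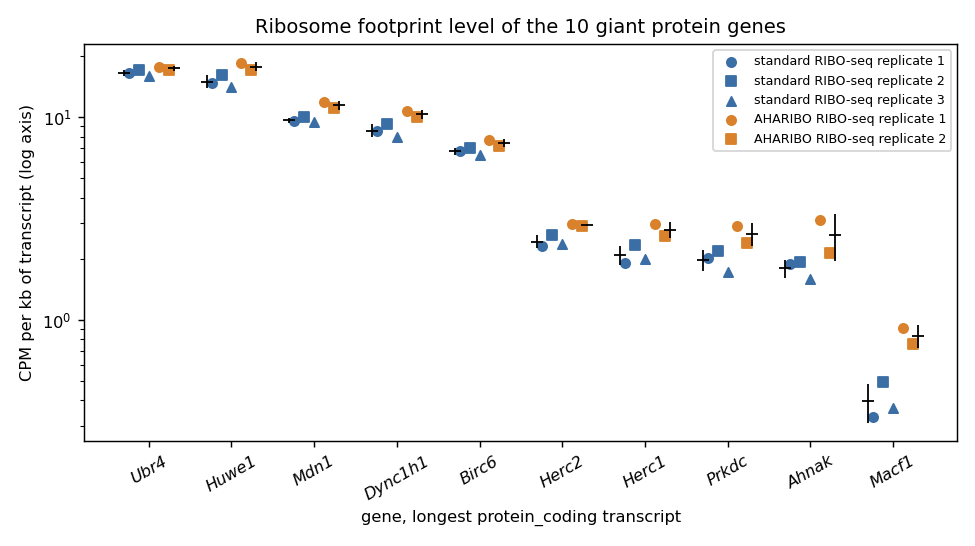
Footprint level of the longest protein_coding transcript of each gene in CPM per kb of transcript (vertical axis, log scale), 1 point per library, with mean ± SD beside the points of each method. Ubr4, Huwe1, Mdn1, Dync1h1 and Birc6 sit between 6.52 and 18.4 CPM per kb in all libraries, 4 between 1.58 and 3.10, and Macf1 between 0.329 and 0.905.

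With AHARIBO, both libraries lay above all 3 standard libraries for each of the 10 genes, against 18.0% of the 12291 genes tested by their longest transcript. Among genes with 8 to 12 kb of coding sequence this held for 50.0%. Among the other 45 genes of at least 12 kb it held for 26.7%, and among the 22 of these at a mean of 5 CPM or more for 50.0%. At an adjusted p under 0.05, 6 of the 10 were higher with AHARIBO and 0 were lower, whereas 2.73% of all genes were higher and 2.41% lower. The 10 had more reads than most genes, with a median of 75.5 CPM (mean over all libraries). This median was 8.67 for genes with 1 to 2 kb of coding sequence and 4.30 for the other genes of at least 12 kb. The part of the read level in these counts was not tested. The median log2 fold change of the 10 was 0.27, beside 0.003 over all genes. The 6 were Macf1, Ahnak, Herc1, Prkdc, Dync1h1 and Mdn1, and the rise ran from 2.09-fold in Macf1 to 1.19-fold in Mdn1. With library size only, 8 of the 10 were called, and with RLE size factors, another way to scale libraries, 4 were. DESeq2 called 2 of the 10, Macf1 and Ahnak. Without AHARIBO replicate 1, edgeR called 1 of the 10, Macf1, while the log2 fold changes of all 10 stayed above 0.

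**Figure D2:**
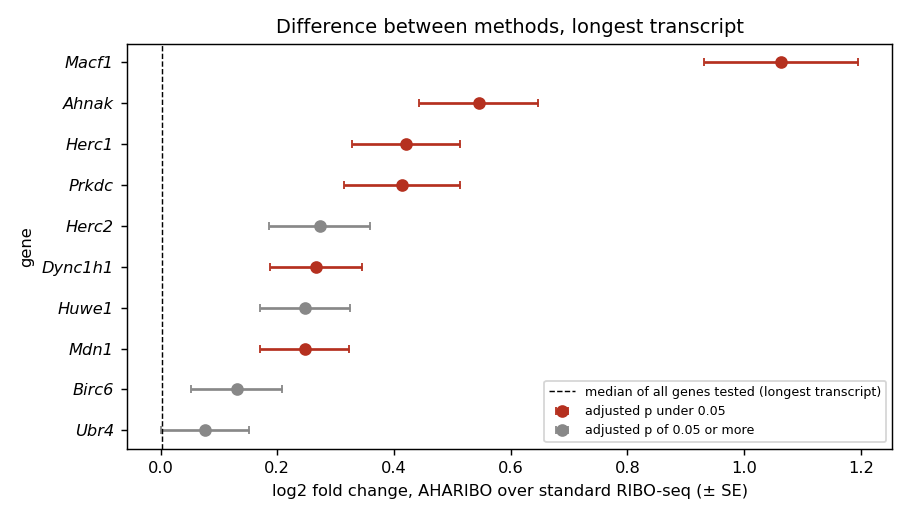
Log2 fold change of AHARIBO over standard RIBO-seq with its approximate standard error (horizontal axis) for the longest transcript of each gene (vertical axis), and the median of all genes tested as a dashed line. Macf1 stands at 1.06, the other 9 lie between 0.08 and 0.54, and the 4 grey points (Herc2, Huwe1, Birc6 and Ubr4) did not pass the test.

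Macf1 gave the largest difference of the 10. Macf1, a spectraplakin that links actin filaments to microtubules, is encoded on the minus strand at chr4:123349633-123684360, and its longest transcript has 98 exons. Its longest transcript had 7.73, 11.6 and 8.57 CPM in the standard libraries and 21.3 and 17.8 CPM in the AHARIBO libraries. The groups did not overlap. The log2 fold change was 1.06 (SE 0.13, edgeR adjusted p = 1.06e-07), and the call held in all 14 alternatives that refitted the data, with values of 0.87 to 1.28. These values rest on 54 to 105 reads in the standard and 178 and 243 reads in the AHARIBO libraries, the fewest of the 10 genes.

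Dync1h1, the heavy chain of cytoplasmic dynein and the motor that carries cargo towards microtubule minus ends, lies at chr12:110601452-110666945 on the plus strand. It had 122, 132 and 114 CPM with standard RIBO-seq and 153 and 143 CPM with AHARIBO. All AHARIBO values were above all standard values, and the spread within each method was smaller than the difference of the means. The log2 fold change was 0.27 (SE 0.08, edgeR adjusted p = 0.0364).

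Ahnak, a scaffold protein found at the plasma membrane and in the nucleus, lies at chr19:8989284-9019196 on the plus strand and has only 5 exons, against 73 to 106 in the other 9 genes. It had 33.9, 34.8 and 28.6 CPM with standard RIBO-seq and 56.2 and 38.7 CPM with AHARIBO. The AHARIBO libraries lay further apart than the lower of them lay from the highest standard library. The log2 fold change was 0.54 (SE 0.10, edgeR adjusted p = 0.000566). Without AHARIBO replicate 1 it was 0.24 (adjusted p = 0.416).

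Among the ubiquitin ligases, Herc1 alone passed the test. Herc1 carries a HECT domain and RCC1-like domains and lies at chr9:66350526-66508775 on the plus strand. It had 28.8, 35.3 and 30.3 CPM with standard RIBO-seq and 45.0 and 39.3 CPM with AHARIBO, and the log2 fold change was 0.42 (SE 0.09, edgeR adjusted p = 0.00373). Herc2, its relative with a role in DNA damage signalling, lies at chr7:56050389-56231763 on the plus strand. It had 35.1, 40.1 and 35.9 CPM with standard RIBO-seq and 45.1 and 44.4 CPM with AHARIBO. The groups did not overlap, but the log2 fold change of 0.27 (SE 0.09) gave an edgeR adjusted p of 0.0572.

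Huwe1, which targets Mcl1 and N-Myc among other proteins, lies at chrX:151803327-151935417 on the plus strand. It had 213, 235 and 204 CPM with standard RIBO-seq and 268 and 249 CPM with AHARIBO. Its log2 fold change was 0.25 (SE 0.08), and the edgeR adjusted p of 0.05002 was just past the threshold. The second full-length transcript, which lacks the bases before the start codon, gave 0.28 with an adjusted p of 0.0243. Huwe1 and Mdn1 had nearly equal fold changes on opposite sides of the threshold.

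Birc6 and Ubr4 differed least. Birc6, an inhibitor of apoptosis that has a ubiquitin-conjugating domain of its own, lies at chr17:74528295-74703356 on the plus strand. It had 107, 111 and 103 CPM with standard RIBO-seq and 121 and 113 CPM with AHARIBO, a log2 fold change of 0.13 (SE 0.08, edgeR adjusted p = 0.377). Ubr4 lies at chr4:139380659-139489588 on the plus strand and had 263, 272 and 254 CPM with standard RIBO-seq and 283 and 272 CPM with AHARIBO. The lower AHARIBO library (271.8 CPM) and the highest standard library (271.5 CPM) were practically level, and the log2 fold change was 0.08 (SE 0.07, edgeR adjusted p = 0.633).

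Prkdc and Mdn1 act in the nucleus. Prkdc, the catalytic subunit of the DNA-dependent protein kinase in DNA end joining, lies at chr16:15637889-15842235 on the plus strand. It had 25.5, 27.7 and 21.7 CPM with standard RIBO-seq and 36.7 and 30.4 CPM with AHARIBO, and the log2 fold change was 0.41 (SE 0.10, edgeR adjusted p = 0.00829). Mdn1 (midasin), an AAA+ ATPase that remodels precursors of the large ribosomal subunit, lies at chr4:32657119-32775207 on the plus strand. It had 171, 179 and 169 CPM with standard RIBO-seq and 213 and 198 CPM with AHARIBO, and the log2 fold change was 0.25 (SE 0.08, edgeR adjusted p = 0.0460).

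Some orders of the libraries recurred across the 10 genes. AHARIBO replicate 1 was above replicate 2 in 10 of 10, and standard replicate 2 was the highest standard library in 10 of 10. Standard replicate 3 was the lowest standard library in 7 of 10. The share of all genes with these orders is not given here, so they cannot be called particular to the 10. Without AHARIBO replicate 1, the log2 fold change was 0.32 for Herc1 (edgeR adjusted p = 0.197), 0.26 for Prkdc (adjusted p = 0.412), 0.21 for Dync1h1 (adjusted p = 0.374) and 0.19 for Mdn1 (adjusted p = 0.421). Without standard replicate 1, 3 of the 10 were called (Macf1, Ahnak and Prkdc), and without standard replicate 3 likewise 3 (Macf1, Ahnak and Herc1). Without standard replicate 2, 7 were called: Huwe1 (adjusted p = 0.0295) and Herc2 (adjusted p = 0.0296) joined, and Mdn1 (adjusted p = 0.0629) did not pass. Without AHARIBO replicate 2, 7 were called, with Huwe1 (adjusted p = 0.0262) as the addition. No alternative called any of the 10 lower.

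Together the 10 longest transcripts took, of the counts summed over all transcripts, in which a read in shared exons can count more than once, 0.100%, 0.107% and 0.0954% in the standard libraries and 0.127% and 0.115% in the AHARIBO libraries. Both AHARIBO shares were above all standard shares. The mean rose from 0.101% ± 0.00595 to 0.121% ± 0.00866, a difference of 0.0203 percentage points with a two-sided exact permutation p of 0.1, the smallest that 3 against 2 libraries can give. With duplicates kept, the difference was 0.00743 percentage points. Of the counts summed over 1 transcript per gene, the 10 took 0.263%, 0.283% and 0.247% in the standard libraries and 0.341% and 0.301% in the AHARIBO libraries, a difference of 0.0567 percentage points.

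The members' own transcripts were examined next, since a gene's transcripts share exons and hence reads. The 2 transcripts of Mdn1, for example, had 1529 and 1524 reads in standard replicate 1. Of the 47 protein_coding transcripts, 19 were higher with AHARIBO and 0 were lower, against 2.27% higher and 2.24% lower of all 66972 transcripts. The 26 transcripts with at least 12 kb of coding sequence included 15 of these and had a median log2 fold change of 0.27. The 21 shorter ones included 4 and had a median of 0.15. Transcripts of a gene are not independent, so these counts describe the set and carry no test of their own. Without AHARIBO replicate 1, 8 of the 47 were called, and without standard replicate 1, 12.

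**Figure D3:**
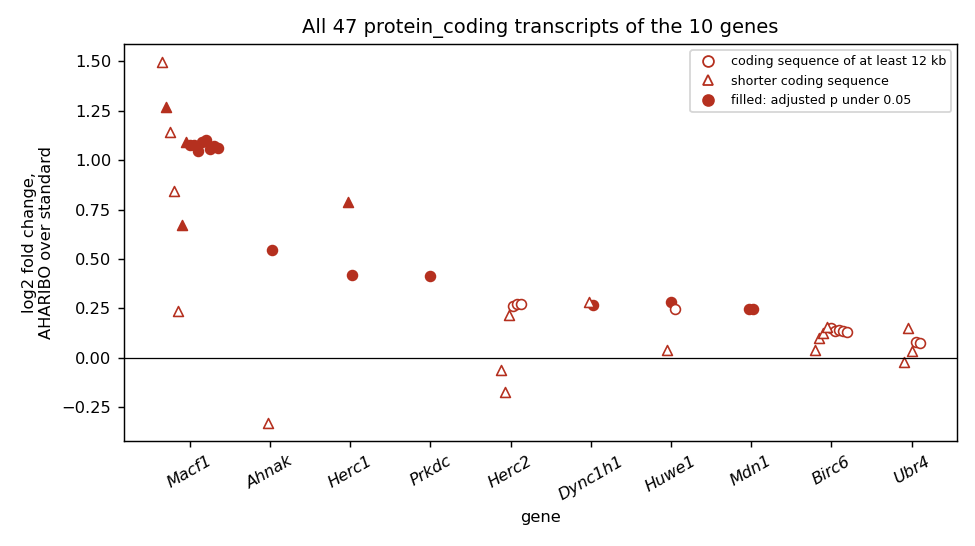
Log2 fold change of AHARIBO over standard RIBO-seq (vertical axis) for each of the 47 protein_coding transcripts by gene, ordered within a gene from the shortest to the longest, with filled symbols for an adjusted p under 0.05. The 8 long Macf1 transcripts lie close together at 1.05 to 1.10, and the short transcript of Ahnak lies below 0 while the long one lies above it.

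Macf1 had the most transcripts, and 11 of its 15 were higher with AHARIBO. The 8 with at least 12 kb of coding sequence had log2 fold changes of 1.05 to 1.10. A partial transcript of 5706 nt from the first part of the gene gave 0.67 (adjusted p = 0.0110), and another of 6281 nt gave 1.09. The transcript of 5597 nt, of which 11.8% of the bases lie in the longest transcript, had 1.68, 2.32 and 2.06 CPM with standard RIBO-seq and 2.89 and 1.80 CPM with AHARIBO. Its groups overlapped, and its log2 fold change was 0.23 (SE 0.30, adjusted p = 0.736).

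Ahnak has a short transcript of 1046 nt with a coding sequence of 450 nt, which shares 71.2% of its bases with the first part of the long one. The short transcript had 4.59, 5.19 and 3.01 CPM with standard RIBO-seq and 3.76 and 3.20 CPM with AHARIBO, so the groups overlapped (log2 fold change -0.33, SE 0.22, adjusted p = 0.440). The log2 ratio of the long to the short transcript, taken after the values were seen, was 2.89, 2.74 and 3.24 in the standard libraries and 3.90 and 3.60 in the AHARIBO libraries. The means differed by 0.79, which is given as a description with no test.

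In Herc1, a partial transcript of 1705 nt from the middle of the gene gave 0.79 (SE 0.20, adjusted p = 0.0124), from 2.69, 3.86 and 3.81 CPM with standard RIBO-seq to 5.95 and 5.89 CPM with AHARIBO. The long Herc1 transcript gave 0.42. None of the 9 Birc6 transcripts (0.04 to 0.15), the 6 Herc2 transcripts (-0.17 to 0.27) or the 5 Ubr4 transcripts (-0.02 to 0.15) passed the test.

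Duplicate removal touched the giant genes less than most. Over all transcripts, 43.3 to 47.7% of the reads were removed as duplicates in a library. For the 10 longest transcripts, the share was 11.2%, 10.1% and 19.6% in the standard libraries and 12.5% and 10.0% in the AHARIBO libraries. Genes with under 1 kb of coding sequence lost 57.5 to 60.2%, and those with 8 to 12 kb lost 10.7 to 16.9%. The other genes of at least 12 kb lost 16.3%, 15.6% and 34.5% in the standard libraries and 14.7% and 16.9% in the AHARIBO libraries, so standard replicate 3 was highest there too. The difference between methods for the 10 genes was -2.34 percentage points (exact permutation p = 0.8), and it came to 0.656 without standard replicate 3.

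**Figure D4:**
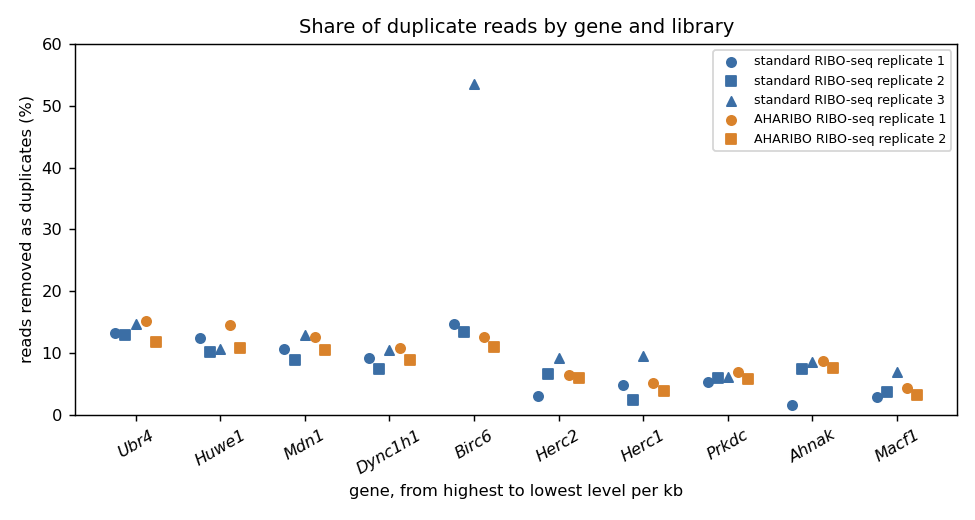
Percent of reads removed as duplicates (vertical axis) for the longest transcript of each gene, 1 point per library, with genes ordered from the highest to the lowest level per kb. All points lie between 1.62% and 15.2% except Birc6 in standard replicate 3, at 53.5%.

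The high value of standard replicate 3 came from Birc6. Removal left 648 of 1395 Birc6 reads in this library, a duplicate share of 53.5%, while the other 4 libraries lost 10.9 to 14.6%. With duplicates kept, Birc6 had 69.7, 71.5 and 122 CPM with standard RIBO-seq and 74.2 and 71.2 CPM with AHARIBO, and its log2 fold change turned from 0.13 to -0.26 (adjusted p = 0.469). The duplicates could be placed, since 7 of the 21 Birc6 transcripts of any type had over 300 of them in this library and the other 14 had at most 17. All 7 share, and the 14 lack, 397 bases in 3 exons at chr17:74654466-74654520, chr17:74655172-74655339 and chr17:74658178-74658351, coding bases 11743 to 12139 from the start codon. A transcript of 730 nt that covers this stretch had 690 reads with duplicates and 23 without in standard replicate 3, beside 86 to 122 and 24 to 58 in the other libraries. No 28-nt window of the 397 bases occurs in the transcripts of another gene.

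The giant genes were then set among genes of other coding lengths. The median log2 fold change of the longest transcripts rose with each step of coding length up to 12 kb, from -0.08 under 1 kb (4003 genes), -0.01 at 1 to 2 kb (4617), 0.07 at 2 to 4 kb (2769) and 0.13 at 4 to 8 kb (747) to 0.23 at 8 to 12 kb (100). At 12 kb and more it was 0.19 over the 55 genes tested of 74. The share of genes higher with AHARIBO was 0.774% under 1 kb, 10.4% at 4 to 8 kb and 24.0% at 8 to 12 kb, while the share lower fell from 5.45% to 0.134% and 0%. In the longest class, 11 of 55 were higher and 0 lower, but 1 was higher without AHARIBO replicate 1, 6 without standard replicate 1 and 7 without standard replicate 3. These classes are a description with no test.

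**Figure D5:**
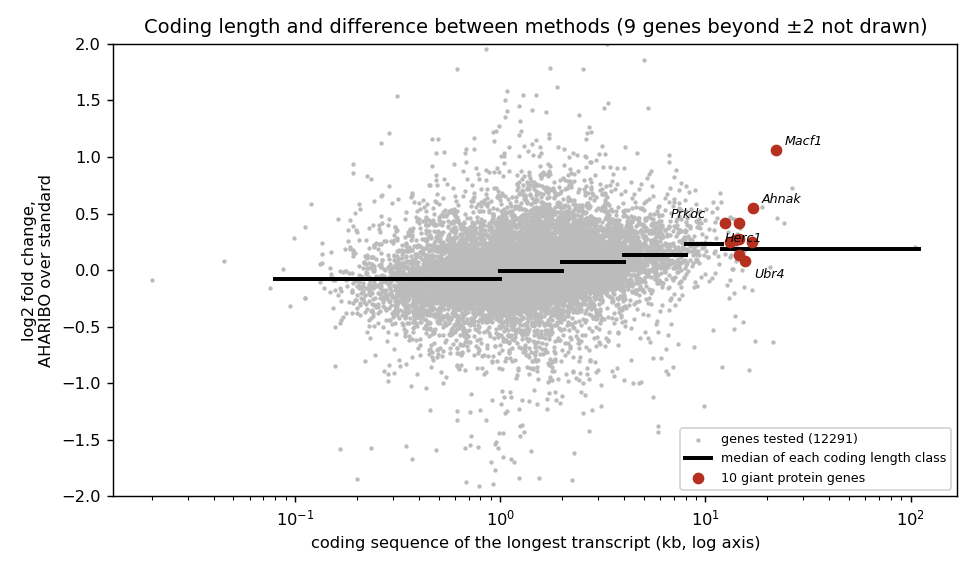
Log2 fold change of AHARIBO over standard RIBO-seq (vertical axis, drawn from -2 to 2) against the coding length in kb (horizontal axis, log scale) for 12291 genes by their longest transcript. Black bars are the medians of the coding length classes, from -0.08 under 1 kb to 0.23 at 8 to 12 kb and 0.19 above, and all 10 giant genes (red) lie above 0.

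The other 45 genes of this class gave a median of 0.13, with 5 higher with AHARIBO and values from -0.89 to 0.73. Of these 45, 23 had a mean under 5 CPM. Among the 22 at 5 CPM or more the median was 0.21, the values ran from -0.09 to 0.47, and the same count of 5 was higher. The lower bound on level was added after the data were seen.

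The 5 were Vps13d (0.47), which has a role in lipid transfer between organelles, the plakin Dst (0.46), the HECT ligase Hectd4 (0.46), 4932438A13Rik (0.41) and the histone methyltransferase Kmt2d (0.27, edgeR adjusted p = 0.0465). DESeq2 called none of these 5, with adjusted p of 0.105 to 0.310. Hectd4 reversed to -0.84 with duplicates kept, where it had 25.3, 26.8 and 74.3 CPM with standard RIBO-seq and 23.5 and 23.0 CPM with AHARIBO. Its duplicate share was 59.8%, 61.1% and 87.8% in the standard libraries and 42.8% and 40.7% in the AHARIBO libraries, and the part of these reads in the difference was not tested. Kmt2d had 57.7, 61.7 and 62.8 CPM with standard RIBO-seq and 77.5 and 68.3 CPM with AHARIBO. Of the other long genes that were not called, the 5 highest in CPM per kb with standard RIBO-seq follow. Hspg2 (perlecan, a basement membrane proteoglycan) had 271, 326 and 282 CPM with standard RIBO-seq and 282 and 270 CPM with AHARIBO (log2 fold change -0.09, adjusted p = 0.593). Lrp1, an endocytic receptor, gave 0.005 (adjusted p = 0.986). The cadherin Fat1 gave 0.19, the ligase Mycbp2 0.20 and the receptor Lrp2 0.28, none of which passed.

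Base composition moved with the difference as well. Over 12286 genes, the Spearman correlation of the log2 fold change was -0.45 with the GC content of the coding sequence, 0.28 with the log of coding length and 0.01 with methionine codons per 1000 residues. These genes share the same 5 libraries, and the correlations are across genes. Within genes of 45 to 50% GC, the median log2 fold change was 0.06 under 2 kb, 0.13 at 2 to 4 kb, 0.20 at 4 to 8 kb and 0.28 at 8 kb or more. The last group, of 43 genes, includes Ahnak, Birc6, Herc1, Huwe1, Macf1 and Mdn1. At 50 to 55% GC the medians were -0.02, 0.06, 0.12 and 0.15, the last group with Dync1h1, Herc2 and Ubr4. Under 45% GC the medians were 0.18, 0.25, 0.30 and 0.40, the last group, of 27 genes, with Prkdc. Prkdc, at 43.3%, had the lowest GC content of the 10, and Ubr4, at 54.6%, the highest. The part of GC content and of coding length in the difference was not tested.

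Among the 10 genes, which share all libraries, Pearson's r of the log2 fold change with coding length was 0.75 and Spearman's rho 0.19 (n = 10), and without Macf1 they were 0.06 and -0.12. With methionine codons per 1000 residues, r was 0.16 and rho 0.26, and without Macf1 they were 0.74 and 0.55. Without Ahnak alone they were -0.09 and 0.10. Without both Macf1 and Ahnak, which has the most methionine codons per residue, they were 0.46 and 0.36. With GC content, r was -0.40 and rho -0.41. With the standard level per kb, rho was -0.90, but the fold change is computed from the same standard values, so this number cannot be read as a relation between independent measures.

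Partners and relatives of the 10 proteins, some of them giants as well (Dst, Hectd4), were read from lists of genes, by the highest protein_coding transcript of each gene. On this choice, 2.59% of 12365 genes were higher with AHARIBO and 2.53% lower, and the median was -0.003. For dynein and dynactin, all 21 subunits and cofactors were tested, 0 passed in either direction, and their median log2 fold change was 0.02 (-0.38 to 0.23). For the Rix1 complex and other factors of large subunit assembly that work with Mdn1, 0 of 14 passed, with a median of 0.003. For DNA end joining partners of Prkdc, 0 of 7 passed, with a median of 0.11.

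In the family of Prkdc-like kinases and their chaperones, 3 of 8 were higher, with a median of 0.15. These were Atm (0.38, edgeR adjusted p = 0.0110) and Atr (0.32, adjusted p = 0.0289), kinases of the DNA damage response, and Smg1 (0.35, adjusted p = 0.0180), a kinase of RNA surveillance. Atm had 23.6, 24.6 and 24.3 CPM with standard RIBO-seq and 33.2 and 29.7 CPM with AHARIBO. The median coding length of this list was 7776 nt, beside 1128 nt for dynein and dynactin. The GC content of the coding sequence was 42.7% in Atm, 41.1% in Atr and 45.7% in Smg1. The part of coding length and of GC content in these calls was not tested.

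Among other large E3 ligases, 1 of 11 tested was higher, Hectd4, with 18.3, 18.7 and 16.5 CPM with standard RIBO-seq and 25.0 and 24.3 CPM with AHARIBO, and the median was 0.18. With duplicates kept the direction of Hectd4 turned, to -0.84. Among plakins, spectrins and microtubule tip proteins related to Macf1, 1 of 15 was higher, Dst (0.49, adjusted p = 0.00189), and the median was 0.15. Plec, another plakin, gave 0.07 (adjusted p = 0.761). Of 8 partners and substrates of Herc2 and Huwe1, 1 was lower, the apoptosis regulator Mcl1, with 124, 118 and 119 CPM with standard RIBO-seq and 90.8 and 102 CPM with AHARIBO (log2 fold change -0.33, adjusted p = 0.00881). For the inhibitor of apoptosis family and Birc6 partners 0 of 10 passed, with a median of 0.05, and for Ahnak partners 0 of 4, with a median of 0.10. Apart from Mcl1, DESeq2 called none of the named genes of these lists.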

How the data were processed

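The 3 standard and 2 AHARIBO RIBO-seq libraries of mESCs were grouped by their labels. The authors deposited raw counts of reads per transcript, with duplicates removed and with duplicates kept, beside the transcript length. Per the labels and methods, the authors trimmed with Trimmomatic 0.36, removed rRNA and tRNA reads, aligned to Gencode M17 transcripts (GRCm38.p6) with STAR at default settings and removed antisense reads. How reads matching several transcripts were counted is not given in the sources used here. Reads have no molecular identifiers, so limits from counts cover counting error only, and identical footprints from different molecules count once after duplicate removal.

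Counts without duplicates were scaled with TMM factors over all transcripts and tested with edgeR 4.0.16 (R 4.3.3), by the quasi-likelihood test with Benjamini-Hochberg adjustment over all 66972 transcripts with 1 CPM in at least 1 library. Approximate standard errors are the size of the fold change over the root of its F value. DESeq2 1.42.0 was an alternative. The main edgeR fit and the DESeq2 fit were run on simulated counts with known fold changes, where only edgeR's error and recovery were held to a set limit. The other alternatives were not run on simulated data. Per-library values were compared by a two-sided exact permutation test. Gene, transcript type, coding sequence and position came from Gencode M21, in which 99.8% of the transcripts were found. Columns of per-sample values left unused numbered 0.

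The 10 genes, gene lists and rules were chosen with earlier results of these data known. The rule for names took all 10 genes, the called genes with at least 12 kb of coding sequence and the 5 highest of the others per kb, and from each list up to 2 called genes with the largest rise and fall. Atr, Plec and the single partial transcripts of Macf1, Ahnak and Herc1 were named after their values were seen. Replicates of a group are biological by label, and the study's text speaks of 2 replicates per method where 3 standard libraries were deposited. The alternatives were the test, normalization, filter, transcript, duplicates, length used, replicate block and leaving out each library, plus 2 added after the data were seen: a mean of 5 CPM for the length classes, and leaving out AHARIBO replicate 1 with standard replicate 3.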

Additional observations from a re-analysis of the deposited data

How the results depend on the processing

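The number of the 10 longest transcripts called higher was 6, and it fell to 2 with DESeq2, 2 with duplicates kept and 1 without both AHARIBO replicate 1 and standard replicate 3. Leaving out each library gave 1 to 7, where a lone AHARIBO library is assumed to vary like the standard ones. Of all 47 transcripts, 19 were called, against 6 with DESeq2, 10 with duplicates kept and 8 without both libraries, and 8 to 20 with each library left out. Over all transcripts, 1520 were higher and 1501 lower. With 1 transcript per gene these counts were 579 and 343, with DESeq2 146 and 126, and without both libraries 384 and 291. With duplicates kept 910 were lower. Leaving out each library gave 355 to 1857 higher and 155 to 1972 lower. Of genes with at least 12 kb, 11 were higher, 4 with duplicates kept and 1 to 12 with each library left out, and their median log2 fold change of 0.19 then ran from 0.12 to 0.22. The duplicate share difference of -2.34 percentage points ran from -4.11 to 0.656 with each library left out. Birc6 reversed to -0.26 with duplicates kept. The cause of these changes was not tested.

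With the replicate number as a block, 3 of the 10 were called, 971 transcripts were higher and 821 lower. Deviations of same-numbered libraries correlated at 0.0423 for replicate 1 and -0.0762 for replicate 2, and the labels do not say that a number marks a shared culture. With 2 AHARIBO libraries, their deviations from the group mean mirror each other. These values therefore cannot decide whether same-numbered libraries belong together. Of 140 single-gene values under alternatives, 100 kept their direction and side of the threshold, 31 dropped below it, 8 passed it and 1 reversed. The 4 genes not called in the main fit could not drop. All 31 drops fell on the 6 called genes, with none on Macf1. The precision of Macf1 is limited by its 54 to 243 reads.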
